A study of Mus musculus with 12 samples.

Results

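The 10 genes with which intercalated cells of the kidney collecting duct move acid and base were followed by RNA-seq in left kidneys of mice with an obstructed ureter. They are the vacuolar proton pump subunits Atp6v1b1, Atp6v1g3, Atp6v1c2, Atp6v0d2 and Atp6v0a4, the anion exchangers Slc4a1, Slc4a9 and Slc26a4, the transcription factor Foxi1 and the carbonic anhydrase Car2. They were listed by name with no threshold on a measured value, although earlier results of these data were known when the list was made. All 10 were found among the 55471 gene rows, and all 10 were among the 18093 genes that passed the filter on low values. Unilateral ureteral obstruction (UUO), made here with a microvascular clamp, blocks urine flow from 1 kidney and is a common model of tubular injury and fibrosis. The mice were of strain C57/BL6 and 8 to 12 weeks old. There were 3 Sprr2f KO kidneys after 5 days of UUO, 4 Sprr2f KO kidneys at day 0, 3 WT kidneys after 5 days of UUO and 2 WT kidneys at day 0. Sprr2f encodes a small proline-rich protein. The labels do not say how the knockout was made or whether day 0 kidneys had surgery, or that each sample came from its own animal. The p-values therefore rest on the spread between samples, which may be technical.

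Intercalated cells are scattered among the principal cells of the connecting tubule and collecting duct. Type A cells secrete acid: cytosolic carbonic anhydrase makes a proton and bicarbonate, the vacuolar proton pump (V-ATPase) sends the proton into the urine, and the anion exchanger AE1 returns bicarbonate to the blood. Type B cells do the reverse and send bicarbonate into the urine through pendrin. The pump has a cytosolic V1 sector that splits ATP and a membrane V0 sector that carries protons. Most cells build it from common subunits, while intercalated cells use restricted isoforms of several of them. Foxi1 is a forkhead factor that mouse intercalated cells need in order to form.

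The promoters of the pump genes are shown because Atp6v0a4 and Atp6v1g3 were the members that followed Atp6v1b1 most closely across the libraries, and because the B1 and a4 genes are known targets of Foxi1 in the mouse. The 250 bases upstream of each start site are given 5′ to 3′ on the strand of the gene, from RefSeq on GRCm38.p6, and capitals mark a forkhead core.
Atp6v1b1 (chr6:83742767-83743016, plus strand): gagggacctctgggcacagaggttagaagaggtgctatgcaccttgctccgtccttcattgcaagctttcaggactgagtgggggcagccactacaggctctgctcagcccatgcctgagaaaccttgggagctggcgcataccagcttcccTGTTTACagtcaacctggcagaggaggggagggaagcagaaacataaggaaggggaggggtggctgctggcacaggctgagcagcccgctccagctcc
Atp6v0a4 (chr6:38124587-38124836, minus strand): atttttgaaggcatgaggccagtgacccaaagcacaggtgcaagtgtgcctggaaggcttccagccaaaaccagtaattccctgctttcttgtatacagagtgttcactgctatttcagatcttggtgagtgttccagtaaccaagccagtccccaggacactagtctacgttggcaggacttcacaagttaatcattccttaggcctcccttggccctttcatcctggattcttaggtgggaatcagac
Atp6v1g3 (chr1:138273488-138273737, plus strand): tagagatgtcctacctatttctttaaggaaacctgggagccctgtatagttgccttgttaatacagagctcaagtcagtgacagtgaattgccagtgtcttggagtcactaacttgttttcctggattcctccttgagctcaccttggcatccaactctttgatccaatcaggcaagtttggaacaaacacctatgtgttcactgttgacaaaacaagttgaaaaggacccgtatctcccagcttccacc
The forkhead cores TGTTTAC and TATTTAC were searched on both strands in windows of 250 bases before and 50 bases after the start site, which the reference tables hold for 6 of the 10 members. Of these 6, 1 held a match, Atp6v1b1, with TGTTTAC on the sense strand 98 bases before the start site. Either core occurs in 6.54% of the 32851 promoters of the same length. The windows of Atp6v0a4, Atp6v1g3, Atp6v1c2, Slc26a4 and Foxi1 hold neither string of letters.

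The libraries held 16567256 to 19398882 reads of 50 bases. Levels are given as scaled CPM, the deposited CPM (reads per 1000000 reads) divided by a TMM scaling factor, which was 1.13 to 1.19 in day 5 libraries and 0.795 to 0.897 in day 0 libraries. Sprr2f had 0 to 3.53 scaled CPM in KO kidneys at day 5 and 22.5 to 49.9 in WT kidneys at day 5. At day 0 it was at 0.309 or lower in every KO and WT library, so it does not check the genotype labels there. The series title speaks of female mice, but 7 of the 12 libraries held Y-linked transcripts and nearly no Xist, and 5 held Xist and nearly no Y-linked transcripts. The 7 were 1 of 3 KO day 5 libraries (replicate 2), all 4 KO day 0 libraries, 1 of 3 WT day 5 libraries (replicate 3) and 1 of 2 WT day 0 libraries (replicate 1). The day and genotype comparisons therefore differ in how many libraries of each kind they hold, and the members' values are given below with and without a term for it.

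The 10 genes spanned a wide range of levels per transcript length, given in scaled CPM per kilobase of exon. Car2 was the highest in each of the 4 groups, at 117 ± 2.62 in KO day 5, 163 ± 9.17 in KO day 0, 103 ± 8.33 in WT day 5 and 172 ± 37.0 in WT day 0 (SD, n = 3, 4, 3 and 2), and its libraries lay above those of the next gene in every group. The a4 subunit gene Atp6v0a4 came next, then Atp6v1g3 and Atp6v1b1; these neighbours did not overlap in KO day 0 and overlapped in the other 3 groups. In KO day 0 Atp6v1b1 had 38.6 ± 2.71 and Slc26a4 27.8 ± 4.16 per kilobase. Atp6v1c2, Atp6v0d2 and Foxi1 lay at 14.7 to 15.2 per kilobase in KO day 0 and overlapped one another. Slc4a1 was the lowest in each group, with 2.94 ± 1.06 in KO day 5, 12.2 ± 1.19 in KO day 0, 2.38 ± 1.26 in WT day 5 and 16.8 ± 2.47 in WT day 0. In both genotypes Slc26a4 ranked 8 of 10 at day 5 and 5 of 10 at day 0, with Slc4a9, Foxi1 and Atp6v0d2 above it at day 5, where neighbouring genes of that stretch overlapped.

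Most of the acid-base genes of intercalated cells were lower after obstruction. In Sprr2f KO kidneys 7 of 10 members fell at day 5, none rose and 3 did not pass the test (Atp6v0d2, Slc4a9 and Foxi1). In WT kidneys all 10 fell. The largest falls were of AE1 (Slc4a1), pendrin (Slc26a4) and the C2 pump subunit (Atp6v1c2). The test was limma on log2(scaled CPM + 0.5) with Benjamini-Hochberg adjustment over all genes, called at 0.05, and it called 25.4% of genes lower and 29.4% higher in KO, and 22.6% lower and 24.5% higher in WT. The median log2 change of the members was -0.70 in KO and -1.14 in WT, beside 0.07 and 0.04 over all genes tested. The day 5 libraries all lay below the day 0 libraries for 7 members in KO and for 10 in WT, beside 25.6% and 30.7% of all genes tested. In tissue RNA, fewer intercalated cells and less RNA per cell cannot be told apart.

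**Figure D1:**
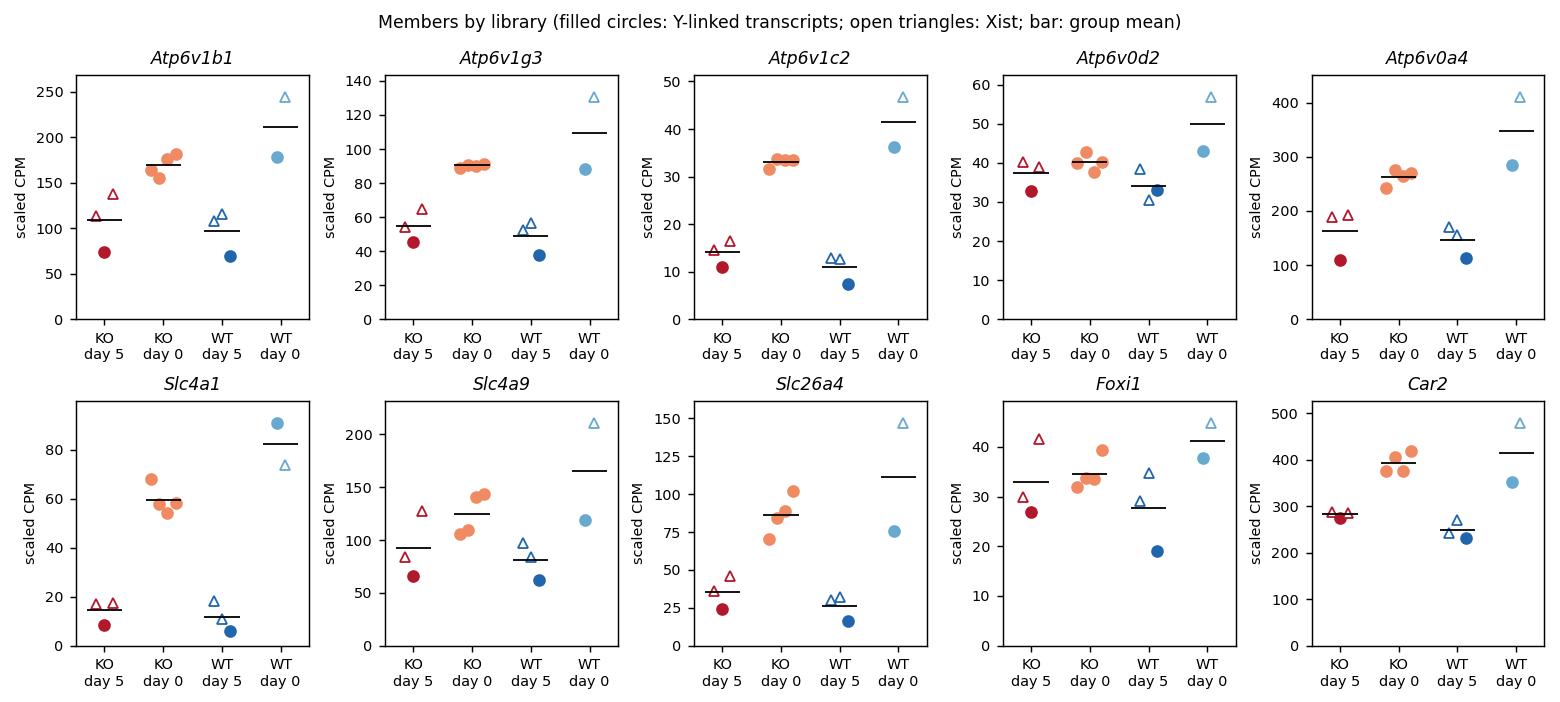
Level of each member in scaled CPM (linear axis from 0) in every library of KO day 5, KO day 0, WT day 5 and WT day 0, with bars at the group means; filled circles are libraries with Y-linked transcripts and open triangles those with Xist. The day 5 libraries lie below all day 0 libraries of their genotype for 7 members in KO and for all 10 in WT, against 25.6% and 30.7% of all genes tested; the filled day 5 library is the lowest of its group for all 10 members in KO and for 9 in WT, against 41.2% and 37.7% of all genes tested.

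The V1 subunit genes fell in both genotypes. Atp6v1b1 encodes the B1 subunit, mutated in human distal renal tubular acidosis with deafness. It had 114, 73.9 and 138 scaled CPM in the KO day 5 libraries, against 164, 155, 176 and 181 in KO day 0, and 108, 115 and 69.1 in WT day 5, against 178 and 244 in WT day 0. The day 5 libraries were all below the day 0 libraries in each genotype, and the library with Y-linked transcripts was the lowest in each day 5 group. The log2 change was -0.68 ± 0.21 in KO (SE; adjusted p = 0.0148) and -1.13 ± 0.25 in WT (adjusted p = 0.00242). Without KO day 5 replicate 2 the KO change was -0.43 with adjusted p = 0.0705.

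Atp6v1g3, the G3 stalk subunit, had 54.5, 45.3 and 64.8 scaled CPM in KO day 5 and 89.1 to 91.4 in the 4 KO day 0 libraries, the tightest of the groups. It had 52.4, 56.6 and 38.0 in WT day 5 and 88.5 and 131 in WT day 0. It fell by 0.73 on the log2 scale in KO (adjusted p = 0.00172) and by 1.15 in WT (adjusted p = 2.83e-04). Atp6v1c2, the C2 subunit that joins the V1 to the V0 sector, had 14.7, 11.04 and 16.5 in KO day 5 and 31.5 to 33.6 in the 4 KO day 0 libraries. Its WT day 5 libraries had 12.9, 12.7 and 7.54, and its WT day 0 libraries 36.3 and 46.8. The fall was the steepest of the pump genes, -1.22 ± 0.18 in KO (adjusted p = 9.61e-05) and -1.89 ± 0.22 in WT (adjusted p = 1.42e-05). Some exons of Atp6v1c2 overlap Pdia6 on the opposite strand, and whether strand was used in counting is not given in the sources used here.

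Of the V0 subunit genes, Atp6v0a4 fell in both genotypes, and Atp6v0d2 passed the test in WT and not in KO. Atp6v0a4 encodes the a4 subunit of the proton path, mutated in human distal renal tubular acidosis. It had 188, 110 and 193 scaled CPM in KO day 5, against 242, 276, 265 and 270 in KO day 0, and 171, 155 and 114 in WT day 5, against 284 and 411 in WT day 0. The groups did not overlap, and the change was -0.73 ± 0.20 in KO (adjusted p = 0.00715) and -1.24 ± 0.23 in WT (adjusted p = 8.22e-04). Without KO day 5 replicate 2 the KO change was -0.46. Of its 50-base sequences 4.23% are shared with D630045J12Rik, which overlaps it, and its exons also meet Tmem213 on the opposite strand. Atp6v0d2, the d2 subunit, which osteoclasts and some macrophages use as well, had 40.2, 32.7 and 38.9 in KO day 5 and 39.9, 42.8, 37.7 and 40.2 in KO day 0. These groups overlapped, with a log2 change of -0.11 ± 0.11 (adjusted p = 0.434). In WT it had 38.3, 30.4 and 33.2 at day 5 and 43.1 and 56.9 at day 0, a change of -0.54 ± 0.14 (adjusted p = 0.00527). Without WT day 0 replicate 2 the WT change was -0.35 with adjusted p = 0.0851. All 15 macrophage markers rose in both genotypes, to a summed 1396 to 1860 scaled CPM in KO day 5 against 253 to 346 in KO day 0, and 1303 to 1732 in WT day 5 against 239 to 251 in WT day 0; none was at 0 in any library. Of 12 osteoclast and lipid-laden macrophage markers 8 rose and 2 fell in KO, and 7 rose and 2 fell in WT, with summed levels of 149 to 199 in KO day 5, 125 to 129 in KO day 0, 154 to 180 in WT day 5 and 117 to 131 in WT day 0. Among those that rose were Ctsk, the collagen-cutting cathepsin K (1.78 in KO and 1.98 in WT on the log2 scale), and Trem2, a lipid receptor of macrophages (3.41 and 3.23). Acp5 went the other way, at -0.67 in KO with the term for Y-linked transcripts in the fit. At most 1 of the 12 was at 0 in a library. Their part in the level of Atp6v0d2 was not tested.

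The 3 anion exchangers differed in the size of their fall. Slc4a1 encodes AE1, the exchanger of the type A cell's blood side and also the main membrane protein of red cells. It had 17.1, 8.43 and 17.6 scaled CPM in KO day 5, against 67.9, 57.9, 54.1 and 58.4 in KO day 0. The WT day 5 libraries had 18.2, 10.8 and 6.003, against 90.8 and 73.8 in WT day 0. All day 5 libraries lay far below the lowest day 0 library. The log2 change was -2.08 ± 0.31 in KO (fold change 0.237, adjusted p = 9.61e-05) and -2.89 ± 0.37 in WT (fold change 0.135, adjusted p = 3.53e-05). The summed level of 15 other erythroid genes was 241 to 360 scaled CPM in KO day 5, 272 to 435 in KO day 0, 322 to 4014 in WT day 5 and 334 to 344 in WT day 0. In WT day 5 it was 4014 in replicate 1, 1165 in replicate 2 and 322 in replicate 3, the same order as their Slc4a1 levels. In KO day 5 it was 267 in replicate 1, 360 in replicate 2 and 241 in replicate 3, the reverse of the order of their Slc4a1 levels. The sum mixed genes that moved differently, so it does not measure red cells alone. Within it, Tfrc had a mean of 30.2 scaled CPM in KO day 5 and 131 in KO day 0, and Klf1 1.12 and 2.94. Epb42 had 4.13 and 0.855, and Hba-a2 13.9 and 11.2. The hemoglobin gene Hba-a2 had an adjusted p of 0.0452 for its log2 change of 1.96 in WT, and of 0.673 for 0.33 in KO. Of the 10 erythroid genes tested 1 rose and 2 fell in KO, and 6 rose and 1 fell in WT; up to 4 of the 15 were at 0 in a library. Without WT day 5 replicate 1 the WT change of Slc4a1 was -3.26. The part of red cells in the Slc4a1 level was not tested.

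Slc26a4 encodes pendrin, on the urine side of type B and related cells. It had 36.1, 24.4 and 45.9 scaled CPM in KO day 5, against 70.7, 84.3, 88.7 and 102 in KO day 0, and 30.1, 32.2 and 16.5 in WT day 5, against 76.0 and 147 in WT day 0. The groups did not overlap in either genotype, although the WT day 0 libraries stood far apart. The change was -1.31 ± 0.27 in KO (adjusted p = 0.00138) and -2.04 ± 0.33 in WT (adjusted p = 2.30e-04). Slc4a9, or AE4, lies on the blood side of type B cells in the mouse. It had 83.7, 66.4 and 128 in KO day 5, which overlapped the 106, 110, 140 and 143 of KO day 0. Its KO change was -0.47 ± 0.24 with adjusted p = 0.117, and -0.72 with adjusted p = 0.0219 without KO day 5 replicate 3. In WT it had 97.3, 84.1 and 61.9 at day 5 and 119 and 211 at day 0, a change of -0.99 ± 0.29 (adjusted p = 0.0125). Without WT day 0 replicate 2 the WT change was -0.58 with adjusted p = 0.162.

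Foxi1 had 30.0, 26.9 and 41.6 scaled CPM in KO day 5 and 31.9, 33.7, 33.6 and 39.3 in KO day 0. The KO groups overlapped fully, and the KO day 5 libraries held both the highest and the lowest value. The log2 change was -0.10 ± 0.19 (95% interval -0.50 to 0.31, adjusted p = 0.690). In WT it had 29.2, 34.8 and 19.0 at day 5 and 37.8 and 44.8 at day 0, a change of -0.61 ± 0.22 with adjusted p = 0.0411. This call was close to the threshold and was lost without WT day 5 replicate 1 (adjusted p = 0.0531) or 3 (0.141), KO day 5 replicate 1 (0.0506), WT day 0 replicate 1 (0.0570) or 2 (0.196), and with edgeR (0.0504). Car2 had 288, 275 and 285 in KO day 5 and 375, 406, 375 and 419 in KO day 0, with no overlap and a change of -0.48 ± 0.10 (adjusted p = 0.00148). In WT it had 243, 271 and 232 at day 5 and 352 and 479 at day 0, a change of -0.73 ± 0.12 (adjusted p = 3.07e-04). Car2 is also made by proximal tubule and red cells, whose part in its level was not tested.

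These counts moved with the scaling between libraries. With library size only, the median change of all genes was 0.45 in KO and 0.40 in WT. The share of higher among called genes was 82.3% in KO and 81.1% in WT, against 53.7% and 52.1% with TMM. The members called lower were 3 in KO and 6 in WT, where 2179 and 2001 of the 18093 genes tested were called lower. With this scaling Foxi1 in KO was at 0.35 (limma, adjusted p = 0.135) and Atp6v0d2 in KO was called higher at 0.34 (adjusted p = 0.0251). Their direction in KO therefore depended on the scaling. Slc4a1, Slc26a4 and Atp6v1c2 were called lower in both genotypes under every scaling, test and filter that was run, and with each library left out.

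**Figure D2:**
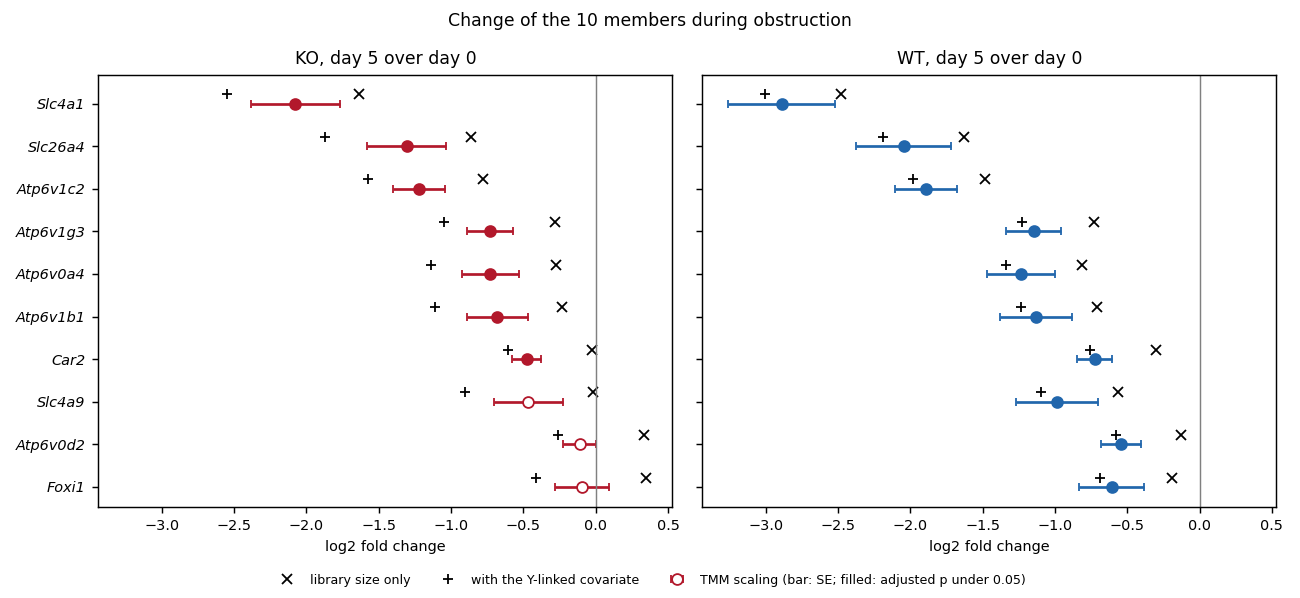
log2 fold change of each member, KO day 5 over KO day 0 (left) and WT day 5 over WT day 0 (right); points are the limma estimates after TMM scaling with SE bars, filled where the adjusted p was under 0.05, crosses the values with library size only and plus signs those with the Y-linked term. Slc4a1 is at -2.08 in KO and -2.89 in WT, and Foxi1 at -0.10 in KO and -0.61 in WT.

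The intercalated cell isoforms were then set against the common isoforms of the same subunits within each library, which needs no scaling between libraries. The question was whether the restricted subunit moved with its partner. Each of 8 ratios was tested over both genotypes with an exact two-sided permutation of the day labels within genotype (350 arrangements, smallest possible p 0.00286), adjusted over the 8 pairs. The C2 subunit gene fell against Atp6v1c1, the common C1 isoform. The log2 ratio was -2.94 ± 0.50 in KO day 5, -1.68 ± 0.11 in KO day 0, -3.19 ± 0.43 in WT day 5 and -1.47 ± 0.15 in WT day 0, a difference of -1.49 (exact permutation, adjusted p = 0.00762). Per transcript length, Atp6v1c2 made up 24.9% ± 6.37 of the C1 and C2 transcripts in KO day 5 and 44.4% ± 1.87 in KO day 0. In WT it was 21.6% ± 5.07 at day 5 and 48.0% ± 2.63 at day 0. Atp6v1c1 itself had log2 changes of 0.05 in KO and -0.17 in WT, neither past the threshold.

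The a4 gene also fell against the common a1 isoform, Atp6v0a1, by 0.98 on the log2 scale (exact permutation, adjusted p = 0.00762). Atp6v0a4 was 74.5% ± 8.75 of the pair per length in KO day 5, 83.1% ± 1.17 in KO day 0, 73.2% ± 5.16 in WT day 5 and 86.6% ± 3.81 in WT day 0. For B1 no such difference was called. Atp6v1b1 over the common Atp6v1b2 differed by -0.08 (exact permutation, adjusted p = 0.780). Atp6v1b2 itself fell, by 0.77 in KO and by 0.88 in WT (adjusted p = 4.87e-05 and 8.85e-05). Per transcript length, Atp6v1b1 made up 33.2% ± 9.85 of the B1 and B2 transcripts in KO day 5, 31.2% ± 2.36 in KO day 0, 32.6% ± 7.44 in WT day 5 and 36.2% ± 4.59 in WT day 0. The permutation of days does not take the kind of library into account. With days permuted within genotype and kind of library (Y-linked or Xist), an alternative added after the data were seen, the B1 over B2 difference was -0.49 (exact permutation, 30 arrangements, adjusted p = 0.0444, with 0.0333 the smallest p they can give). No KO day 0 library held Xist, so KO day 5 replicates 1 and 3 did not enter this alternative for any pair. Their B1 over B2 log2 ratios, -1.03 and -0.84, lay above those of all KO day 0 libraries. Among the Y-linked libraries alone the B1 over B2 log2 ratio was -2.10 in KO day 5 against -1.65 to -1.29 in KO day 0, and -1.93 in WT day 5 against -1.30 in WT day 0. Atp6v1g3 over Atp6v1g1 differed by -0.31 (adjusted p = 0.176, exact permutation), and Atp6v0d2 over Atp6v0d1 by 0.28 in the other direction (adjusted p = 0.0800, exact permutation). Without KO day 5 replicate 3 the G3 ratio had adjusted p = 0.0444 (exact permutation), and with days permuted within kind of library it differed by -0.57 (exact permutation, adjusted p = 0.0444). Without WT day 5 replicate 2 or WT day 0 replicate 2 the d2 ratio had adjusted p = 0.0381 or 0.0114 (exact permutation for each).

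The exchangers were also set against each other. Slc4a1 over Slc4a9 fell by 1.76 on the log2 scale at day 5 (exact permutation, adjusted p = 0.00762). The mean log2 ratios were -2.66 in KO day 5, -1.05 in KO day 0, -2.85 in WT day 5 and -0.95 in WT day 0. Slc4a1 over Slc26a4 differed by -0.81 (exact permutation, adjusted p = 0.0274). That call was lost without KO day 5 replicate 2 (adjusted p = 0.0533), WT day 5 replicate 2 (0.0508) or 3 (0.0610), or WT day 0 replicate 1 (0.137, all by exact permutation), and with days permuted within kind of library (-0.91, exact permutation, adjusted p = 0.114). Since the red cell share of Slc4a1 reads was not measured, these ratios compare transcripts and not cell types. Atp6v1b1 over Aqp2, the water channel of principal cells, fell by 0.86 (exact permutation, adjusted p = 0.0171), and day 5 lay below day 0 in every library of WT, while in KO 1 day 5 library (replicate 3) lay within the day 0 range.

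**Figure D3:**
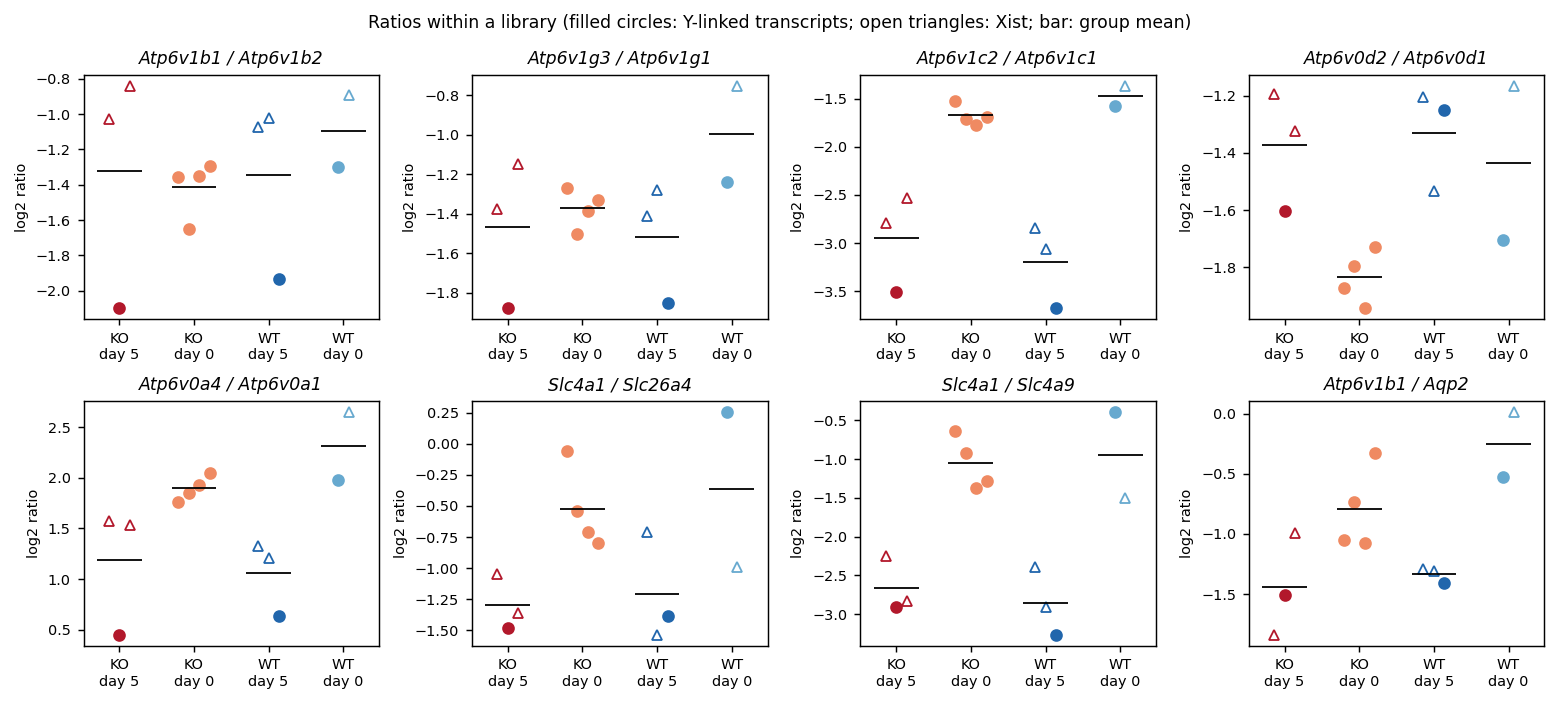
log2 ratio of scaled CPM of a pair of genes within each library for the 8 pairs, by group, with group means as bars; filled circles are libraries with Y-linked transcripts and open triangles those with Xist. Day 5 and day 0 do not overlap within a genotype for Atp6v1c2 over Atp6v1c1, for Atp6v0a4 over Atp6v0a1 and for Slc4a1 over Slc4a9, while they overlap for Atp6v1b1 over Atp6v1b2.

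Most other genes of the proton pump fell as well. Of 19 other pump genes tested 15 fell and 2 rose in KO, and 12 fell and 1 rose in WT, with a median log2 change of -0.52 in KO and -0.63 in WT. Atp6v1a, the catalytic A subunit, had 290 ± 30.2 scaled CPM in KO day 5, 591 ± 23.0 in KO day 0, 246 ± 12.5 in WT day 5 and 578 ± 2.05 in WT day 0 (log2 changes of -1.03 and -1.23). Atp6v1e1, a stalk subunit, fell by 0.84 in KO and by 1.05 in WT, and Atp6v0c, the proteolipid of the rotor ring, by 0.71 and by 0.77. Tcirg1, the a3 isoform of lysosomes and osteoclasts, rose instead, by 1.22 in KO and 1.39 in WT (adjusted p = 5.45e-07 and 1.38e-06). The common subunits serve lysosomes and proximal tubule cells as well, and 11 of 12 proximal tubule markers fell in KO and 12 of 12 in WT (median -1.66 and -2.56).

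**Figure D4:**
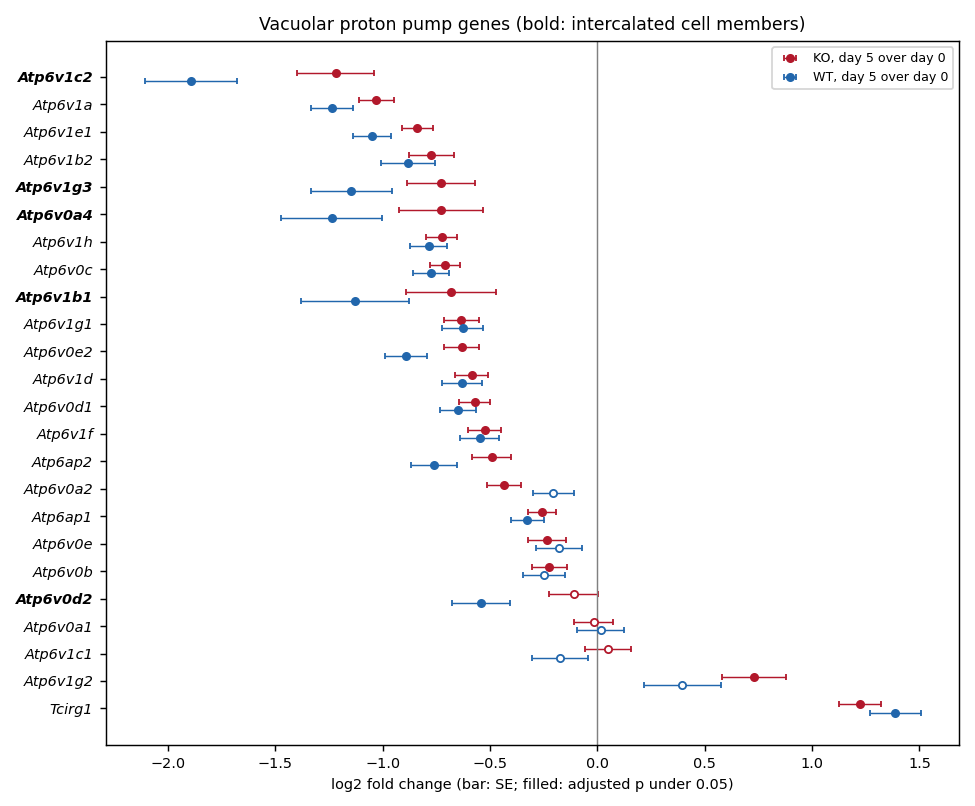
log2 fold change of the proton pump genes that were tested, KO day 5 over KO day 0 (red) and WT day 5 over WT day 0 (blue), with SE bars, filled where the adjusted p was under 0.05; members are in bold. Atp6v1c2 is the lowest in both genotypes, Atp6v1a is at -1.03 and -1.23, and Tcirg1 is the highest at 1.22 and 1.39.

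Other genes known from intercalated cells did not move as one. Of 28 tested, 11 fell, 4 rose and 13 did not pass the test in KO, and 14 fell, 2 rose and 12 did not pass in WT (medians -0.12 and -0.54). Those that fell included Insrr, an alkali-sensing receptor (-1.61 in KO and -2.22 in WT), Car12, a carbonic anhydrase of the cell surface (-1.35 and -1.88), Oxgr1, the α-ketoglutarate receptor of type B cells (-1.30 and -2.02), and Rhbg, an ammonia transporter (-1.07 and -1.87). Ap1b1, a subunit of the AP-1 sorting adaptor, fell by 0.45 and by 0.61. P2ry14, a receptor for UDP-sugars, rose by 1.55 in KO and 1.22 in WT, and Parm1 by 0.70 and 0.68. Atp12a, the colonic proton-potassium pump, rose by 1.74 in KO, with 4.53 ± 2.20 scaled CPM in KO day 5 and 0.943 ± 0.273 in KO day 0. In WT it had 2.61 ± 0.885 at day 5 and 2.87 ± 1.67 at day 0, a log2 change of -0.07 (adjusted p = 0.905). The difference between the genotypes was 1.80 ± 0.50 and did not pass the test (adjusted p = 0.524).

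**Figure D5:**
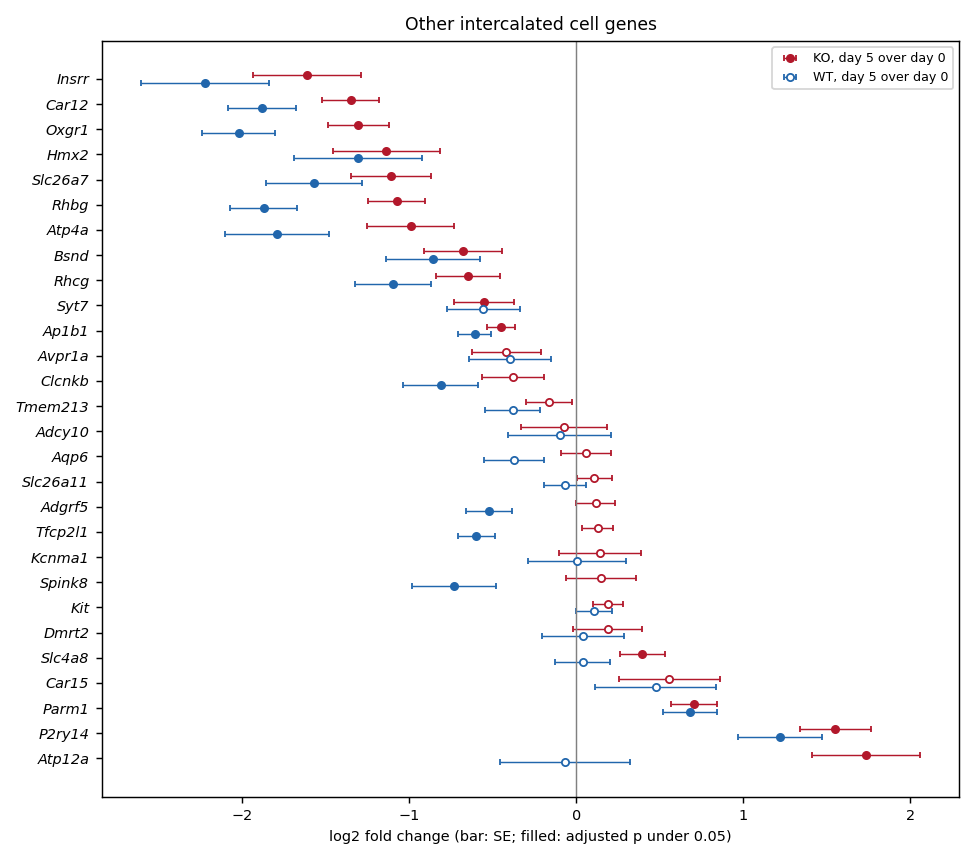
log2 fold change of 28 other intercalated cell genes, KO day 5 over KO day 0 (red) and WT day 5 over WT day 0 (blue), with SE bars, filled where the adjusted p was under 0.05. Insrr is lowest at -1.61 in KO and -2.22 in WT, and Atp12a is at 1.74 in KO and -0.07 in WT.

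Among 12 other carbonic anhydrases tested 6 fell and 2 rose in each genotype, with Car9 and Car4 falling by 2.25 and by 1.92 in KO and by 1.34 and by 1.28 in WT, and Car11 rising by 1.71 and 1.48. Of 17 tested acid-base genes of other nephron segments 9 fell in each genotype, and 4 rose in KO and 2 in WT. They included the sulfate-bicarbonate exchanger Slc26a1 (-1.75 and -1.61), the proximal tubule sodium-bicarbonate cotransporter Slc4a4 (-0.93 and -1.21), the sodium-proton exchanger Slc9a2 (-0.92 and -0.81) and the scaffold Slc9a3r1 (-0.82 and -0.74).

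The called genes of the neighbouring principal cells lay in both directions. Of 16 principal cell genes 3 fell and 3 rose in KO, and 5 fell and 1 rose in WT, with medians of -0.05 and -0.39. For this and the other gene lists, the shares over all genes tested were 25.4% lower and 29.4% higher in KO, and 22.6% and 24.5% in WT. Aqp2 had log2 changes of -0.03 in KO and -0.05 in WT (adjusted p = 0.914 and 0.897), while Aqp3, the water channel of the blood side, fell by 1.16 and by 1.05, and Gata3, a transcription factor of the collecting duct, rose by 0.88 and 0.67. The sodium channel subunit Scnn1a fell by 0.66 and by 1.08, and the potassium channel Kcnj1, also of the thick limb, by 1.21 and by 1.69. Set against the median principal cell gene of the same library, as a description with no test, the 10 members lay lower at day 5 than at day 0 by 0.34 to 2.32 on the log2 scale in KO and by 0.29 to 2.63 in WT. On that scale Foxi1 differed by -0.34 in KO and -0.35 in WT, and Atp6v0d2 by -0.35 and -0.29. The summed level of the 28 other intercalated cell genes was 1107 to 1461 scaled CPM in KO day 5, 1620 to 1749 in KO day 0, 1011 to 1308 in WT day 5 and 1943 to 2325 in WT day 0, and none of them was at 0 in any library. Of 12 thick limb and distal convoluted tubule genes 9 fell in KO and 10 in WT, and the calcium buffer Pvalb had log2 changes of -5.91 and -6.02. Among 6 podocyte genes 1 rose and 1 fell in each genotype. Of 9 urothelial genes 7 rose in KO and 8 in WT, with Krt5 at 2.85 and 3.90.

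No member was called between genotypes. At day 5 no gene of the 18093 passed the limma test in either direction (0% called lower and 0% higher). Before adjustment 1025 genes (5.67%) had a limma p under 0.05, with 0 members among them, and DESeq2 called 51 genes and edgeR 0. Sprr2f itself was not called by limma, with 0 to 3.53 scaled CPM in KO day 5 and 22.5 to 49.9 in WT day 5. The absence of a call therefore does not show that a gene was equal between genotypes. All 10 members had a positive KO minus WT value, from 0.13 for Atp6v0a4 to 0.44 for Slc26a4, with a median of 0.18 and a smallest adjusted p of 0.945. The groups overlapped for 9 members. For Car2 they did not, with 275 to 288 scaled CPM in KO day 5 and 232 to 271 in WT day 5. In the other direction, the KO day 5 libraries all lay below the WT day 5 libraries for 4.21% of all genes tested. The share lying all above, as for Car2, was not counted. The 95% interval of the difference was -0.20 to 1.07 for Slc26a4, -0.36 to 1.06 for Slc4a1, -0.34 to 0.63 for Atp6v1b1 and -0.05 to 0.42 for Car2, all of which span 0. Without WT day 5 replicate 3 the values of Atp6v1b1, Atp6v1g3, Atp6v0a4, Slc4a1 and Slc4a9 were below 0, the lowest of them -0.088 for Atp6v1b1, and without KO day 5 replicate 3 those of Atp6v1b1, Atp6v0a4 and Slc4a9, down to -0.097 for Slc4a9.

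At day 0 the 10 values pointed the other way, from -0.46 for Slc4a1 to -0.06 for Car2, with a median of -0.30 and a smallest adjusted p of 0.301. The test called 0.0166% of genes lower and 0% higher in KO. For Atp6v1c2, Atp6v0d2, Atp6v0a4 and Slc4a1 all 4 KO day 0 libraries lay below both WT day 0 libraries, as for 12.4% of all genes tested. Atp6v0d2, with 37.7 to 42.8 scaled CPM in KO day 0 against 43.1 and 56.9 in WT day 0, was the only member with an unadjusted p under 0.05 (95% interval -0.58 to -0.02), where 15% of all genes were. Slc4a1 had 54.1 to 67.9 in KO day 0 and 73.8 and 90.8 in WT day 0. Without WT day 0 replicate 2 the values of Atp6v1g3, Slc4a9, Slc26a4 and Car2 were positive, between 0.038 and 0.18.

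The obstruction effect itself was smaller in KO than in WT for every member by its estimate, but the difference of the 2 effects did not pass the test for any. It was positive for all 10, from 0.25 for Car2 to 0.81 for Slc4a1 with a median of 0.51, and the smallest adjusted p was 0.635. The test called 0.00553% of all genes higher and 0% lower. Atp6v1c2 and Atp6v0d2 were under 0.05 before adjustment, with 0.67 (95% interval 0.06 to 1.28) and 0.43 (0.05 to 0.82), as were 7.59% of all genes. With a term for Y-linked transcripts in the fit the difference was again positive for all 10, between 0.12 for Atp6v1b1 and 0.46 for Slc4a1, with a median of 0.24 and a smallest adjusted p of 0.567. The day 5 and day 0 groups enter this value and the genotype comparisons together, so the 3 sets of values are not independent. None of the 8 pair ratios passed the test between KO and WT either (exact permutation of genotype within day, 300 arrangements, smallest adjusted p = 0.600). The widest was Atp6v1b1 over Aqp2, at -0.32.

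The members also differed between libraries with Y-linked transcripts and libraries with Xist inside the same group, a comparison added after the data were seen. With a term for it beside the 4 groups, 7 of 10 members were lower in the Y-linked libraries, where 4.41% of all genes were called lower. The values were -0.85 ± 0.11 for Slc26a4, -0.65 ± 0.14 for Slc4a9, -0.65 ± 0.08 for Atp6v1b1, -0.62 ± 0.07 for Atp6v0a4, -0.54 ± 0.09 for Atp6v1c2, -0.48 ± 0.07 for Atp6v1g3 and -0.47 ± 0.12 for Foxi1. The other members had -0.70 (Slc4a1, adjusted p = 0.0657), -0.22 (Atp6v0d2, 0.154) and -0.19 (Car2, 0.151). Markers of other nephron cells were lower in the Y-linked libraries as well. The test called lower 8 of 12 proximal tubule genes, among them the endocytic receptor Lrp2 (-0.89), 8 of 12 thick limb and distal convoluted tubule genes, among them the sodium-chloride cotransporter Slc12a3 (-0.98), 4 of 6 podocyte genes, among them nephrin, Nphs1 (-0.84), and 6 of 16 principal cell genes, among them the sodium channel subunit Scnn1g (-0.67). Those 4 genes were chosen after their values were seen. It called 8 of 28 other intercalated cell genes and 1 of 19 other pump genes lower. In all these lists 2 genes were called higher, both of the proximal tubule. The median was -0.58 for the members, -0.53 for proximal tubule, -0.54 for thick limb and distal convoluted tubule, -0.49 for podocyte and -0.36 for principal cell genes. For 8 members the Y-linked library was the lowest in all 3 groups that held both kinds, as it was for 15.7% of all genes tested; the exceptions were Atp6v0d2 in WT day 5 and Slc4a1 in WT day 0. For Slc26a4 the Y-linked library had 24.4 scaled CPM in KO day 5 against 36.1 and 45.9 in the Xist libraries, 16.5 in WT day 5 against 30.1 and 32.2, and 76.0 in WT day 0 against 147.

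With that term in the fit, 9 members fell in KO and 10 in WT, where 4584 and 4563 of the 18093 genes tested were called lower. Atp6v1b1 was at -1.11 in KO and -1.24 in WT, Slc26a4 at -1.87 and -2.19, and Slc4a1 at -2.55 and -3.01. Slc4a9 (-0.90, adjusted p = 5.52e-04) and Foxi1 (-0.41, adjusted p = 0.0347) then passed the test in KO, and Atp6v0d2 did not (-0.26, adjusted p = 0.0668). The genotype values at day 0 then lay at 0.018 for Atp6v1b1, 0.12 for Slc26a4 and 0.035 for Car2, and the other 7 were below 0, the lowest -0.19 for Atp6v0d2. At day 5 all 10 genotype values were positive with the term, with a median of 0.18 and a smallest adjusted p of 0.273. All 4 KO day 0 libraries held Y-linked transcripts, so within KO day 0 the term rests on the other groups. Within the Y-linked libraries alone, 1 against 4 in KO and 1 against 1 in WT, every member was below 0 in both genotypes. Atp6v1b1 was then at -1.18 in KO and -1.37 in WT, Slc26a4 at -1.78 and -2.17, and Slc4a1 at -2.73 and -3.81. Within the Xist libraries alone, 2 against 1 in WT, every member was below 0, with Atp6v1b1 at -1.11, Slc26a4 at -2.21 and Slc4a1 at -2.34. In these fits a group of 1 library was assumed to vary like the groups that held more. No member was called between genotypes within a kind where both groups held it.

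The genes whose profiles over the 12 libraries were closest to 3 of the members were taken by the root mean square difference of centred log2 levels, among 14007 genes with a mean log2 level of at least 1. This is a description, since the libraries share groups and scaling. The nearest to Atp6v1b1 were Kng2, a kininogen (0.0913), Sfxn2, a mitochondrial carrier (0.103), Cnnm4, a magnesium transporter (0.112), Apmap (0.113) and Rhcg, the ammonia transporter of the collecting duct (0.114). The members Atp6v0a4 (0.112) and Atp6v1g3 (0.115) lay as close, whereas Slc4a1 was at 0.831. The nearest to Slc26a4 were Gm5524, a long noncoding RNA in GENCODE (0.153), Fmo1, a flavin monooxygenase (0.175), Insrr (0.176), Atp4a, the gastric proton-potassium pump (0.180), and Vstm2a (0.183), with Atp6v1c2 the closest member at 0.185. Those of Foxi1 were Rnaset2b, a ribonuclease (0.146), Gm16536 (0.148), Cdkn1c, a cell cycle inhibitor (0.153), Tmem201 (0.155) and Kifc2, a kinesin (0.156). Foxi1's own profile varied by 0.310 around its mean, and its closest member was Atp6v0d2 at 0.247. Atp6v1b1, at 0.301 from Foxi1, varied by 0.518 around its own mean. The measure grows where a gene has larger swings, so it does not tell whether a member rose and fell with Foxi1.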

How the data were processed

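RNA-seq of 12 mouse left kidneys was analysed as 1 table of genes. Per the submitters' processing notes, reads were handled with STAR, SAMtools and HTSeq on GRCm38.p6; versions and strand use are not given in the sources used here. The deposited values are CPM: every column sums to 1000000, and dividing by the smallest step gave whole reads for 100% of the 665652 values within 0.001. The filter on low values was filterByExpr with a minimum count of 10 and a minimum total of 15, and 18093 of 55471 genes passed. CPM was scaled by TMM (edgeR 4.0.16), and log2(scaled CPM + 0.5) was fitted with limma 3.58.1 in R 4.3.3 (empirical Bayes with a trend) in all 12 libraries and 4 groups, with Benjamini-Hochberg adjustment over all genes, called at 0.05. Lengths, positions and overlaps come from GENCODE M21, and promoters from RefSeq on GRCm38.p6.

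The members and gene lists were chosen with earlier results of these data known. One symbol of the list of acid-base genes of other segments, Nherf1, was not matched; the same gene is in that list as Slc9a3r1. Genes named are the 10 members, their partner isoforms, up to 4 genes per list (8 for other intercalated cell genes) with the smallest adjusted p in KO obstruction, and the 5 nearest profiles of 3 members. Ctsk, Trem2, Hba-a2 and Krt5 are among these. Acp5 was added because it went the other way from Ctsk and Trem2. Alternatives were edgeR and DESeq2 1.42.0 on the recovered reads, limma-voom, RLE scaling, library size only, other filters and pseudocounts, the libraries of the groups compared alone, a term for Y-linked transcripts and each library left out. Added after the data were seen were refits within the Y-linked or the Xist libraries alone, where both groups held that kind, and pair tests permuted within kind. In counts simulated for KO obstruction over 18093 genes, the limma fit called 63 of 100 genes changed 2-fold and 85 of 100 changed 4-fold, with 10 false calls. No other genes were changed in the simulation, whereas 9917 were called in the data. It also held no shift in scaling between the days. These rates therefore need not hold for the data. Counting error is small at 137 or more reads per member and library.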

Additional observations from a re-analysis of the deposited data

Results flagged for a closer look

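Atp6v1c2 had 31.5 scaled CPM in KO day 0 replicate 1, below the other 3 libraries of that group, whose highest had 33.6. The gap is a large part of a narrow range, which is what set it apart among the 10 members in the group of 4. The other groups have 2 or 3 libraries and were not examined for this. Chance alone sets a library apart in about 1 of 20 groups, and 10 were examined.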

How the results depend on the processing

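Slc4a1, Slc26a4 and Atp6v1c2 were called lower in both genotypes under every alternative run, and each of the other 7 members lost a call under at least 1. With library size only, 3 members were called lower and 1 higher (Atp6v0d2, 0.34) in KO and 6 lower in WT, and Foxi1 in KO was at 0.35. Of the 18093 genes tested, that scaling called 2179 lower and 10114 higher in KO and 2001 lower in WT. With each library left out in turn, 6 to 8 members were lower in KO and 7 to 10 in WT. With the Y-linked term, the genotype values at day 0 were 0.018 for Atp6v1b1, 0.12 for Slc26a4 and 0.035 for Car2, and below 0 for the other 7. In the Y-linked libraries alone they were 0.022 for Atp6v1g3, 0.042 for Slc4a9, 0.17 for Slc26a4 and 0.15 for Car2, and below 0 for the other 6; at day 5 they were -0.012 for Atp6v0d2 and -0.047 for Atp6v0a4, and above 0 for the other 8. In WT obstruction Atp6v0d2 was not called in the Y-linked libraries alone (-0.38) and Foxi1 not in the Xist libraries alone (-0.47); in KO Slc4a9 was called in the Y-linked libraries alone (-0.88). Of other changes of test, scaling, filter and pseudocount, only the WT call of Foxi1 was lost, with edgeR, with no filter and with the compared groups alone.

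The counts of all genes called between genotypes were small and moved with the settings; the cause was not tested. At day 5 the count was 0, and it was 51 with DESeq2, 2 with 1 CPM added, 3 with the Y-linked term and 0 to 23 with a library left out. At day 0 it was 3, and it was 370 with DESeq2, 6 with RLE scaling, 15 with library size only, 9 with no filter, 6 with the stricter filter, 8 with 0.1 CPM added, 19 with the Y-linked term and 1 to 638 with a library left out, the highest without WT day 0 replicate 1. For the difference of the obstruction effects it was 1, and it was 47 with DESeq2, 0 with library size only, 0 with no filter, 0 in the Y-linked libraries alone, 3 with the Y-linked term and 0 to 107 with a library left out.

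With a library left out, Foxi1 in KO obstruction ranged between -0.28 and 0.033. KO minus WT at day 5 ranged between -0.088 and 0.39 for Atp6v1b1, -0.0051 and 0.29 for Atp6v1g3, -0.040 and 0.39 for Atp6v0a4, -0.036 and 0.73 for Slc4a1, and -0.097 and 0.37 for Slc4a9. At day 0 it ranged between -0.52 and 0.038 for Atp6v1g3, -0.76 and 0.059 for Slc4a9, -0.77 and 0.18 for Slc26a4, and -0.28 and 0.17 for Car2. The day 5 minus day 0 log2 ratio ranged between -0.20 and 0.12 for Atp6v1b1 over Atp6v1b2, -0.43 and -0.19 for Atp6v1g3 over Atp6v1g1, 0.15 and 0.42 for Atp6v0d2 over Atp6v0d1, and -1.12 and -0.50 for Slc4a1 over Slc26a4. The KO minus WT log2 ratio ranged between -0.30 and 0.046 for Atp6v1b1 over Atp6v1b2, -0.098 and 0.16 for Atp6v1c2 over Atp6v1c1, -0.31 and 0.039 for Atp6v0a4 over Atp6v0a1, -0.43 and 0.19 for Slc4a1 over Slc26a4, and -0.23 and 0.32 for Slc4a1 over Slc4a9. With days permuted within kind of library the day 5 minus day 0 log2 ratio was -0.49 for Atp6v1b1 over Atp6v1b2 and -0.57 for Atp6v1g3 over Atp6v1g1, both then called, and -0.91 for Slc4a1 over Slc26a4, then not called; the KO minus WT log2 ratio was 0.0070 for Atp6v0a4 over Atp6v0a1 and -0.065 for Slc4a1 over Slc4a9, neither called. The day 5 minus day 0 values within kind of library leave out KO day 5 replicates 1 and 3, which had no KO day 0 library of their kind. With WT day 0 left with 1 library, that library was assumed to vary like the other groups. The WT day 0 group held 2 libraries, and the Y-linked libraries were spread unevenly over the groups.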
